A study of Mus musculus with 12 samples.

Results

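The fat cells of the dermis were followed through a set of 32 genes for the hormones, lipid droplet proteins, lipases, uptake proteins, enzymes and transcription factors of mature adipocytes. A gene was measured where the array annotation gave it a probe set (a group of oligonucleotides for 1 transcript) with that single gene symbol, and its brightest probe set by the mean of the 12 arrays stood for it. On this rule 28 of the 32 genes were measured, among 18193 genes with such a probe set. Plin1, Cfd, Acsl1 and Adrb3 had none and were not analysed here.

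Skin was taken from C3H/HeJ grafted mice, a model of alopecia areata (AA) in which skin from an alopecic C3H/HeJ donor is grafted onto a recipient of the same strain and the recipient goes on to lose its hair. Per the study's methods, recipients were young adults at grafting and were then aged for further months until hair loss was near complete. Every mouse in all groups therefore carried a graft and had established disease at the start of treatment. Baricitinib, an inhibitor of the kinases JAK1 and JAK2, was applied topically to 3 mice and vehicle control to 3 others. Each mouse gave a skin biopsy at week 0, the start of treatment, and at week 12, which makes 4 groups of 3 arrays. The paper reports hair regrowth and less skin inflammation with baricitinib, and no visible regrowth with vehicle. The baricitinib week 12 group thus differs from the others in its reported disease state. Whole skin was profiled, so fewer cells of a type and less RNA per cell cannot be told apart.

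Some arrays stood apart before any comparison was made. The methods state that a baricitinib sample at baseline and another at the end of treatment failed quality control and were removed, and list a control sample at baseline without naming its experiment. All 3 mice are present in each group here, and the sources used do not say which were removed or whether they are among these arrays. Baricitinib week 0 replicate 2 and baricitinib week 12 replicate 1 had the lowest spread of values over all probe sets (SD 2.56 and 2.61 on the log2 scale, against 2.73 to 2.85 on the other arrays). The 3' to 5' index is the mean log2 excess of the 3' over the 5' control probe sets of Gapdh and Actb, and a higher value is a sign of shorter amplified RNA. It lay at 1.23 to 1.31 on 3 arrays (vehicle week 0 replicate 1 and baricitinib week 12 replicates 2 and 3) and at 2.55 to 4.10 on the other 9.

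Dermal adipocytes form a layer under the hair follicles of mouse skin, and this layer is known to thicken and thin with the hair cycle. A mature fat cell takes up fatty acids, joins them to glycerol as triglyceride, stores the triglyceride in a single droplet coated with perilipin and CIDE proteins, and releases it through a chain of lipases. The transcription factors Pparg and Cebpa drive this program, and the cell secretes hormones such as adiponectin and leptin. Some of the genes are also used by other cells of skin: Cd36, Fabp4, Lpl and Pparg by endothelium or macrophages, and Cidea, Fasn, Acly, Acaca and Dgat2 by sebocytes.

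The 250 bases before the transcription start (RefSeq, GRCm38.p6) are shown for the 3 genes that rose with baricitinib, Sncg, Cidec and Pnpla2, and for Lep, the classical hormone of the fat cell. Capitals mark the core TTGCNNAA bound by C/EBP factors, searched on both strands. Cidec has 2 annotated starts, and each window is given. The windows lie at chr14:34374670-34374919 on the minus strand (Sncg), chr6:113435761-113436010 and chr6:113434765-113435014 on the minus strand (Cidec), chr7:141454938-141455187 on the plus strand (Pnpla2) and chr6:29059971-29060220 on the plus strand (Lep).
Sncg: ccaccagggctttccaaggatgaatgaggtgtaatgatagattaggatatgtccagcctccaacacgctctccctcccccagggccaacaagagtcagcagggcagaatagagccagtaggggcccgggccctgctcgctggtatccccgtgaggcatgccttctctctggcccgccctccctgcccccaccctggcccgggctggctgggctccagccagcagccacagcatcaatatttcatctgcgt
Cidec, upstream start: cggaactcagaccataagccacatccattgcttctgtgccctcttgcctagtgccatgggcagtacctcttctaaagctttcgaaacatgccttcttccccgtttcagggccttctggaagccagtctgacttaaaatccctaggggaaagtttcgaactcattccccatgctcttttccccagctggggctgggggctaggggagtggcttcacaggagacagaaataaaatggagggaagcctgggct
Cidec, downstream start: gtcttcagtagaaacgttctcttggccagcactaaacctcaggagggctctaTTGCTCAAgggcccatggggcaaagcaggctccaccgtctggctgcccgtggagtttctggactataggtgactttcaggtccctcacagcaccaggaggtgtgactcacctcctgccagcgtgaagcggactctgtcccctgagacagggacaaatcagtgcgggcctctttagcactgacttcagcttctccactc
Pnpla2: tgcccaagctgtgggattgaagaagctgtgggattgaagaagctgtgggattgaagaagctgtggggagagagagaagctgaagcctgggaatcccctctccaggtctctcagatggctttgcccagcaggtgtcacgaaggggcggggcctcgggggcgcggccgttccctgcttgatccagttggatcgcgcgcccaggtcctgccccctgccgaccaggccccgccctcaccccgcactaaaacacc
Lep: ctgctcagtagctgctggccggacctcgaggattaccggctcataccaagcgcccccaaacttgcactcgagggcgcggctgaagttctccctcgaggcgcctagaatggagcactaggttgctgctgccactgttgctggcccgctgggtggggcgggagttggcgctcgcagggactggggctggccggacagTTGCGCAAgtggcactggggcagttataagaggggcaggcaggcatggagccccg
The core stood 55 bases before the start of Lep and 198 bases before the downstream start of Cidec. Windows were given for 21 of the 32 genes, and 4 of their 27 windows held the core (Cidec, Lep, Plin1 and Pparg), beside 9.56% of all 32851 windows in the table. The nuclear receptor core AGGTCA was in 7 of the 27 windows (Acly, Aqp7, Cd36, Pparg and Ucp1), beside 14% of all windows. The direct repeat of these 6 letters with 1 base between them, the PPAR type, was in 0 of the 27 and in 0.0335% of all. A match is a match of letters only.

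The first comparison asked how the adipocyte genes changed over 12 weeks of baricitinib. Of the 28 measured genes, 3 rose and 0 fell at an adjusted p under 0.05 in limma, where 0.362% of all 45037 probe sets were called higher and 0.875% lower. The 3 were Sncg, Cidec and Pnpla2. All 28 differences were above 0, from 0.04 (Acaca) to 3.16 (Sncg) on the log2 scale, with a median of 1.07 beside 0.00 over all probe sets tested. In 16 of the 28 genes the 3 week 12 arrays lay above the 3 week 0 arrays without overlap, as they did in 7.97% of all probe sets. At an unadjusted p under 0.05, 16 genes were higher and 0 lower, beside 6.23% and 6.05% of all. The remaining 25 genes did not pass the test, and their values are given below without a call.

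**Figure D1:**
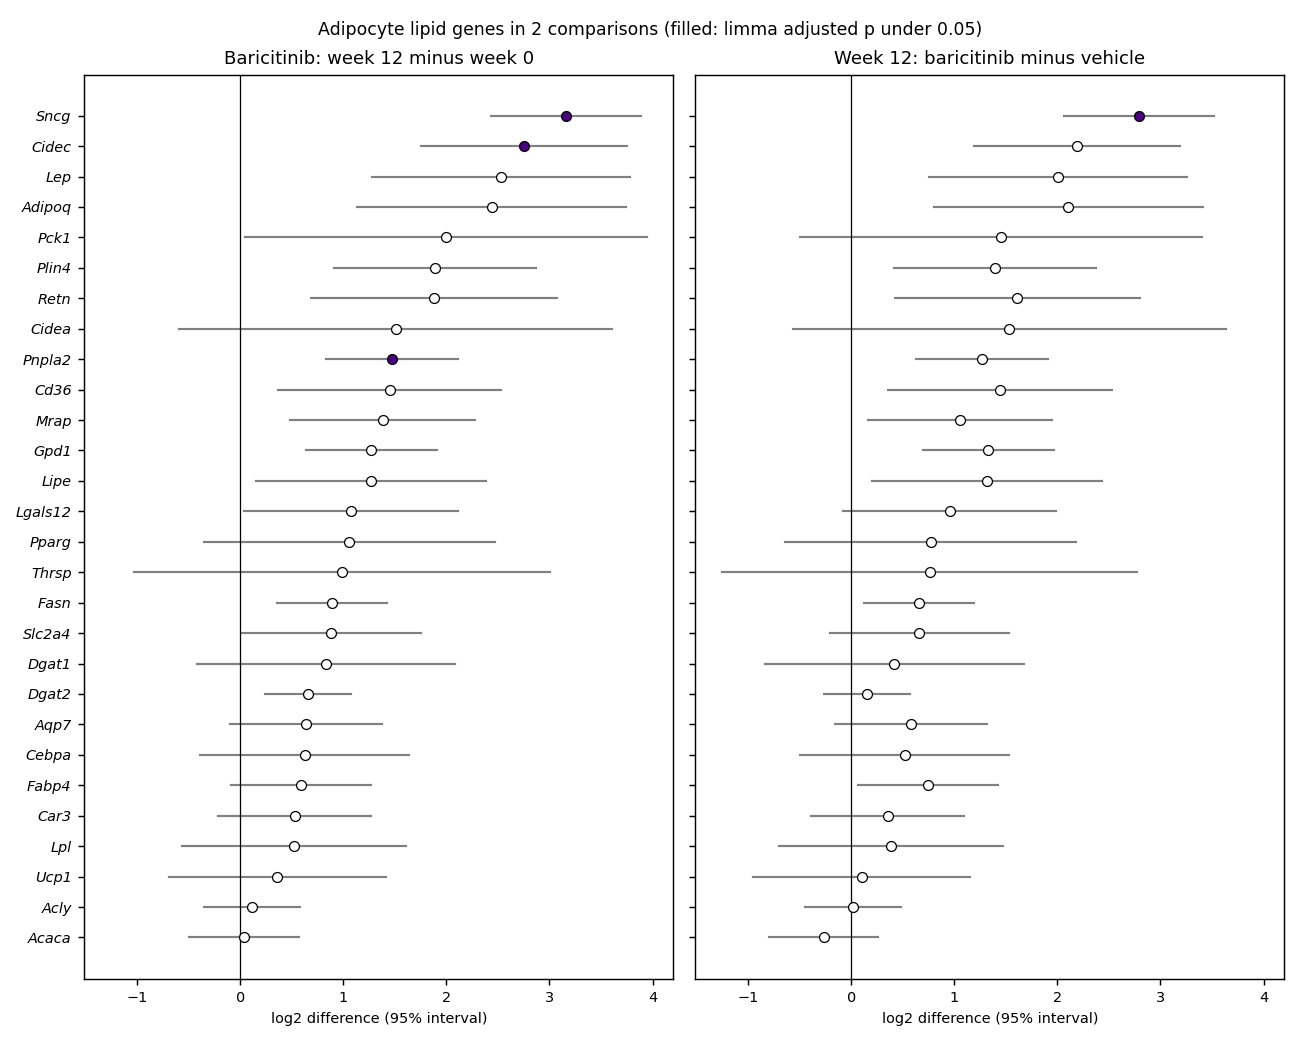
Log2 differences of the 28 adipocyte lipid genes (points, with 95% intervals from limma) for baricitinib week 12 minus week 0 (left) and for baricitinib minus vehicle at week 12 (right). Filled points have an adjusted p under 0.05: Sncg, Cidec and Pnpla2 on the left and Sncg on the right. Every point on the left lies above 0.

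Sncg encodes gamma-synuclein, a small protein abundant in white fat cells and also in peripheral sensory neurons. Its log2 levels at week 0 were 5.66, 5.69 and 5.44 in the 3 baricitinib mice, and at week 12 they were 8.38, 8.51 and 9.38 in the same order. In the vehicle mice they were 5.91, 4.89 and 4.93 at week 0 and 5.81, 6.24 and 5.85 at week 12. All 3 baricitinib week 12 arrays stood more than 2 log2 units above each of the other 9. The difference from week 0 was 3.16 ± 0.33 (SE), an 8.94-fold higher level with an adjusted p of 0.00184 in limma. This call was kept in 33 of 33 alternative fits, with an adjusted p of 0.0488 at most. These fits are not all separate. Sncg has 1 probe set, so choosing the probe set by variance repeats the reported fit. The fit without the 2 arrays of lowest spread is also counted among those without 1 baricitinib array of each week.

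The lipid droplet proteins came next. Cidec, which lets small droplets fuse into large ones, measured 7.10, 6.99 and 5.89 at week 0 and 9.31, 9.24 and 9.70 at week 12 with baricitinib. The vehicle mice gave 6.96, 6.30 and 6.83 at week 0 and 6.40, 8.28 and 7.00 at week 12. The baricitinib week 12 arrays were again the 3 highest, and vehicle week 12 replicate 2 was the nearest to them. The rise was 2.76 ± 0.46 (SE), 6.76-fold, with an adjusted p of 0.0176 in limma. The call was lost without baricitinib week 0 replicate 3 (adjusted p = 0.0854), week 12 replicate 2 (0.0674) or week 12 replicate 3 (0.0775). It was also lost where the mouse entered as a fixed replicate block (0.0799) and with only the groups compared. Over all alternatives Cidec was called in 21 of 33. Plin4, another coat protein of droplets, measured 8.52, 8.18 and 7.04 at week 0 and 10.23, 9.31 and 9.87 at week 12 with baricitinib. The vehicle mice gave 7.75, 8.42 and 8.51 at week 0 and 7.60, 8.85 and 8.78 at week 12, all below the baricitinib week 12 arrays. The difference of Plin4 was 1.89 ± 0.45 (SE) without a call (adjusted p = 0.0710 in limma).

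Cidea, a CIDE protein of brown fat and of sebocytes, did not follow the groups. Its levels were 7.68, 6.89 and 8.11 at week 0 and 6.74, 9.87 and 10.60 at week 12 with baricitinib, and 9.47 on vehicle week 0 replicate 1. These 3 highest arrays were the 3 with the lowest 3' to 5' index, all above the 6.28 to 8.65 of the other 9. The difference with baricitinib was 1.51 ± 0.96 (SE, adjusted p = 0.603 in limma), and it was 0.04 with the index as a covariate, an alternative chosen after seeing the data.

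Of the lipases, Pnpla2 encodes adipose triglyceride lipase, which removes the first fatty acid from stored triglyceride. It measured 8.07, 8.14 and 7.42 at week 0 and 9.73, 9.11 and 9.21 at week 12 with baricitinib. Vehicle arrays measured 7.75, 7.98 and 7.96 at week 0 and 7.57, 8.40 and 8.28 at week 12. No array of another group reached the lowest baricitinib week 12 array. Pnpla2 rose by 1.47 ± 0.29 (SE), 2.78-fold, with an adjusted p of 0.0364 in limma. The call was kept without any single array in 3 of the 12 cases (vehicle week 0 replicate 1, vehicle week 0 replicate 3 and vehicle week 12 replicate 1), and elsewhere the adjusted p reached 0.156 at most. In the fit with a fixed replicate block per mouse it was 0.0783, with cyclic loess 0.0516 and with median centring 0.0546. Over all alternatives Pnpla2 was called in 8 of 33. A second, dimmer Pnpla2 probe set differed by 0.67 (adjusted p = 0.727). Lipe, hormone-sensitive lipase, differed by 1.27 ± 0.51 (SE, adjusted p = 0.321), and its 3 highest arrays were those with the lowest index.

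Adipoq and Lep, both hormones, had differences between those of Cidec and Pnpla2. Adipoq, which encodes adiponectin and marks fat cells, measured 9.29, 10.05 and 7.84 at week 0 and 11.53, 11.30 and 11.68 at week 12 with baricitinib. In vehicle mice it measured 8.02, 9.16 and 9.43 at week 0 and 8.26, 9.92 and 10.02 at week 12. The 3 baricitinib week 12 arrays were the highest, while week 0 arrays of the same mice were spread over more than 2 log2 units. The difference of 2.44 ± 0.60 (SE) did not pass the test in limma (adjusted p = 0.0794). Lep, leptin, measured 5.42, 6.86 and 4.20 at week 0 and 8.51, 7.51 and 8.05 at week 12 with baricitinib. It measured 4.12, 4.62 and 4.63 at week 0 and 5.23, 6.34 and 6.48 at week 12 with vehicle. Here the week 12 arrays lay above the week 0 arrays in both treatments. The baricitinib difference was 2.53 ± 0.57 (SE, adjusted p = 0.0591 in limma), and without baricitinib week 0 replicate 2 it passed (3.22, adjusted p = 0.0182). Retn, resistin, differed by 1.88 ± 0.54 (SE, adjusted p = 0.140), with the baricitinib week 12 arrays at 10.53 to 11.14 and the other 9 at 7.48 to 9.98.

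**Figure D2:**
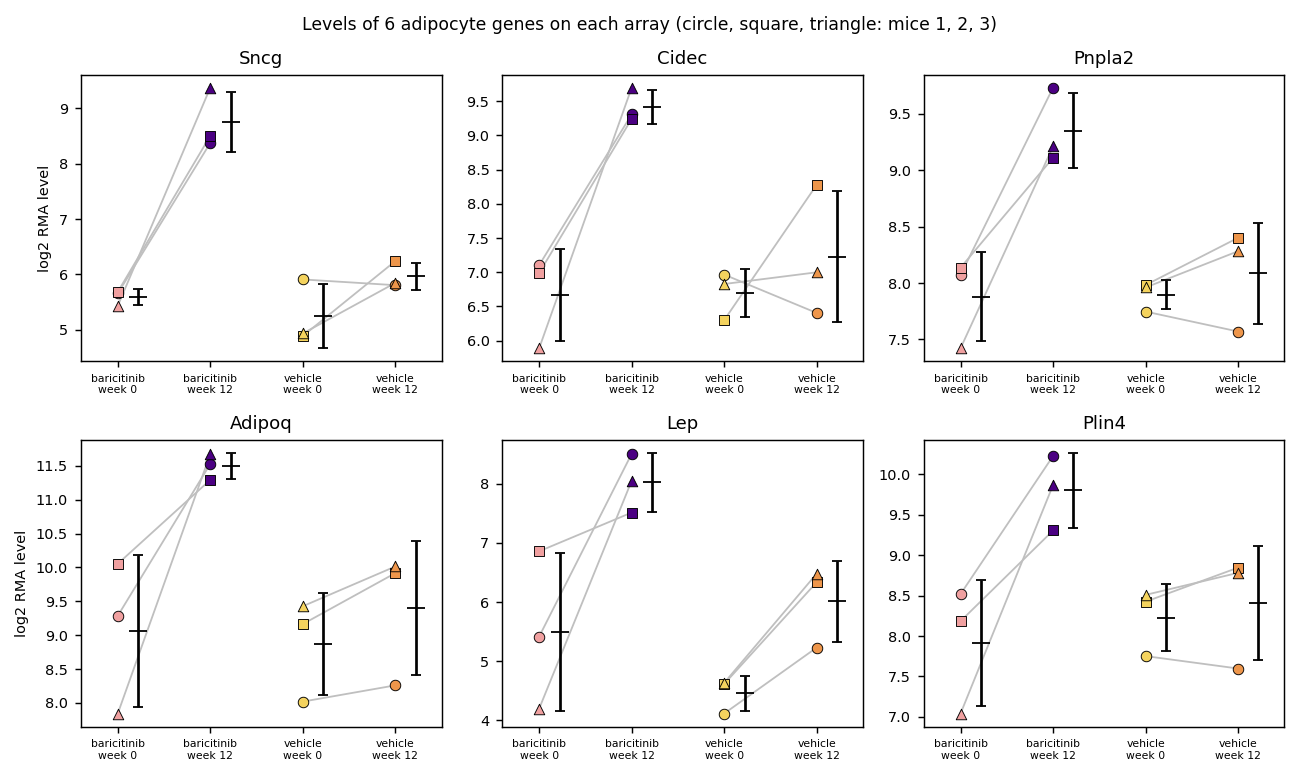
Log2 levels of Sncg, Cidec, Pnpla2, Adipoq, Lep and Plin4 on each array, by treatment and week, with lines joining the 2 arrays of a mouse and bars for the group mean ± SD (n = 3). In each panel the 3 baricitinib week 12 arrays lie above all others.

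Fatty acid uptake and glycerol handling showed no call among their measured genes. Lpl, which frees fatty acids from lipoproteins at the vessel wall, measured 12.49, 12.91 and 11.55 at week 0 and 13.36, 12.63 and 12.54 at week 12 with baricitinib, and 11.32, 12.34 and 12.73 and then 11.52, 12.79 and 13.05 with vehicle. Fabp4, the fatty acid binding protein of fat cells, measured 12.20, 13.05 and 12.12 and then 13.26, 12.93 and 12.95 with baricitinib, and 12.24, 12.24 and 12.66 and then 11.76, 12.48 and 12.65 with vehicle. The baricitinib weeks overlapped for both genes, with differences of 0.52 ± 0.50 and 0.59 ± 0.31 (SE). A dimmer probe set of each gene did not overlap between the weeks and differed by more, 2.34 for Lpl (adjusted p = 0.107 in limma) and 0.96 for Fabp4 (0.0986), also without a call. Cd36, a fatty acid transporter, differed by 1.45 ± 0.49 (SE, adjusted p = 0.222 in limma), and its baricitinib week 12 arrays were the 3 highest.

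Gpd1, which makes glycerol 3-phosphate for esterification, differed by 1.27 ± 0.29 (SE, adjusted p = 0.0614 in limma), with baricitinib week 12 arrays at 9.01 to 9.50 and the other 9 at 7.39 to 8.22. Pck1, the enzyme of glyceroneogenesis, measured 8.01, 9.00 and 6.30 at week 0 and 10.92, 8.76 and 9.60 at week 12 with baricitinib. It measured 6.20, 8.49 and 9.31 at week 0 and 7.19, 8.66 and 9.08 at week 12 with vehicle. The groups overlapped, and the difference of 1.99 ± 0.89 (SE) had an adjusted p of 0.395. The insulin-regulated glucose transporter Slc2a4 differed by 0.88 ± 0.40, and Aqp7, the glycerol channel, by 0.64 ± 0.34 (SE), with adjusted p of 0.398 and 0.499.

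The enzymes of fatty acid and triglyceride synthesis had smaller differences. Fasn, fatty acid synthase, differed by 0.89 ± 0.24 (SE, adjusted p = 0.117 in limma), with baricitinib week 12 arrays at 10.23 to 10.66 above the other 9 at 8.99 to 9.96. Acaca, which commits acetyl-CoA to fatty acid synthesis, measured 10.01, 9.94 and 9.79 and then 10.38, 9.74 and 9.73 with baricitinib, and 9.33, 9.93 and 9.85 and then 10.17, 10.23 and 10.25 with vehicle. Acly, which supplies the acetyl-CoA, measured 12.53, 12.14 and 12.34 and then 12.35, 12.51 and 12.50 with baricitinib, and 12.11, 12.34 and 12.51 and then 12.17, 12.55 and 12.57 with vehicle. These 2 enzymes had the smallest differences of all 28 genes, 0.04 ± 0.24 and 0.12 ± 0.21 (SE), and the sign of Acaca turned with median centring (-0.023). Dimmer probe sets of Acly differed by 0.35, 0.73, -0.43, -0.06 and -0.09, none with a call. The 4 genes with a mean level above 12 (Acly, Lpl, Fabp4 and Car3) had a median difference of 0.52, against 1.27 for the other 24. The part of signal level in these differences was not tested. Dgat2 and Dgat1, which add the last fatty acid to triglyceride, differed by 0.65 ± 0.19 and 0.83 ± 0.57. Thrsp, a regulator of lipogenesis, differed by 0.99 ± 0.92 (SE). None of these passed the test.

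Neither transcription factor passed. Pparg differed by 1.06 ± 0.65 (SE, adjusted p = 0.581 in limma) and ranged from 8.12 to 10.17 over the baricitinib week 12 arrays. Cebpa differed by 0.62 ± 0.46 (SE, adjusted p = 0.671), and its 3 highest arrays were again those with the lowest index. Mrap, an accessory protein of melanocortin receptors, and Lgals12, a lectin on lipid droplets, differed by 1.38 ± 0.41 and 1.07 ± 0.47 (SE). Car3, a carbonic anhydrase abundant in fat and muscle, measured 12.95, 13.02 and 12.32 at week 0 and 13.58, 13.26 and 13.03 at week 12 with baricitinib. Its vehicle arrays measured 12.05, 12.86 and 13.11 and then 12.50, 12.89 and 13.41, overlapping both baricitinib weeks, and the difference was 0.53 ± 0.34 (SE). Ucp1, the uncoupling protein of brown fat, measured 4.63, 4.41 and 4.06 and then 6.11, 3.98 and 4.09 with baricitinib, and 4.45, 4.56 and 4.35 and then 4.25, 4.48 and 5.15 with vehicle. Its difference of 0.36 ± 0.48 (SE) rested on week 12 replicate 1 and was -0.33 without that array. Ucp1 was dim, with a mean level of 4.54 at a mean percentile of 41.5 of all probe sets.

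The second comparison set baricitinib against vehicle at week 12. It shares the baricitinib week 12 arrays with the first, so the comparisons are not independent. Of the 28 genes, 1 was called higher (Sncg) and 0 lower in limma, beside 0.151% and 0.429% of all probe sets. Sncg was higher by 2.79 ± 0.33 (SE), 6.91-fold, with an adjusted p of 0.00756. In 27 of the 28 genes the difference was above 0, with a median of 0.86 beside 0.01 over all probe sets, and Acaca was the exception (-0.27 ± 0.24, SE). The groups did not overlap, with baricitinib higher, in 14 genes, as in 7.44% of all probe sets. At an unadjusted p under 0.05, 13 were higher and 0 lower, beside 4.88% and 6.01% of all. Cidec differed by 2.19 ± 0.46 (adjusted p = 0.0630), Adipoq by 2.10 ± 0.60 (0.177), Lep by 2.01 ± 0.57 (0.178), Gpd1 by 1.33 ± 0.29 (0.0758) and Pnpla2 by 1.27 ± 0.29 (0.0923), each with its SE and limma's adjusted p. The dimmer Pnpla2 probe set differed by 0.11 without a call. Cidec passed without vehicle week 12 replicate 2 (2.72, adjusted p = 0.0492).

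Across all 12 arrays, 11 of the 28 genes had the 3 baricitinib week 12 arrays above every other array, against 2.16% of all probe sets. They were Adipoq, Cd36, Cidec, Fasn, Gpd1, Lep, Mrap, Plin4, Pnpla2, Retn and Sncg. The mean level of the 28 genes per array was 9.39 to 9.79 at baricitinib week 12, against 7.91 to 8.56 at baricitinib week 0, 7.94 to 8.34 at vehicle week 0 and 8.10 to 8.87 at vehicle week 12.

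With vehicle, 0 of the 28 genes and 0% of all probe sets passed between week 12 and week 0 in limma. Before adjustment, 3 genes were higher and 0 lower at p under 0.05, beside 1.24% and 1.22% of all probe sets. The median difference was 0.34 beside 0.02 over all probe sets, and 25 genes were above 0. Lep, Dgat2, Acaca, Fasn and Mrap did not overlap between the weeks (5 of 28 genes, beside 4.68% of all probe sets). Lep had a difference of 1.56 ± 0.57 (SE) and Thrsp the largest, 1.84 ± 0.92, both with an adjusted p of 1.00. Before treatment the 2 sets of mice had 0 of the 28 genes and 0% of all probe sets called in limma. Before adjustment 0 of the 28 were under 0.05 in either direction, beside 0.44% higher and 0.688% lower of all. Fasn alone of the 28 did not overlap between the treatments then (baricitinib higher, beside 2.27% of all probe sets).

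The difference between the treatments' changes was tested as an interaction. Again 0 of the 28 genes and 0% of all probe sets passed in limma. Before adjustment 6 genes were higher and 0 lower at p under 0.05, beside 3.02% and 3.26% of all. The change with baricitinib exceeded that with vehicle by 2.44 ± 0.47 for Sncg (adjusted p = 0.190), 2.23 ± 0.65 for Cidec (0.448), 1.91 ± 0.84 for Adipoq (0.774) and 1.29 ± 0.41 (SE) for Pnpla2 (0.541). The 95% interval for Sncg was 1.41 to 3.47. The rise with baricitinib and the absence of a call with vehicle are thus not shown to differ for any of the 28 genes at this threshold.

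Within single mice, the median change of the 28 genes was 1.38, 0.74 and 1.33 in baricitinib mice 1, 2 and 3, and 24, 21 and 27 genes went up. In vehicle mice it was 0.08, 0.54 and 0.32, and 15, 27 and 24 genes went up. Each baricitinib mouse therefore had a larger median than each vehicle mouse. In 17 genes all 3 baricitinib mice went up, and in 14 genes all 3 vehicle mice did. The like shares of all probe sets within mice were not computed, so these counts only describe the 28 genes. In the group differences, 22644 of all 45037 probe sets were above 0 with baricitinib and 24205 with vehicle.

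**Figure D3:**
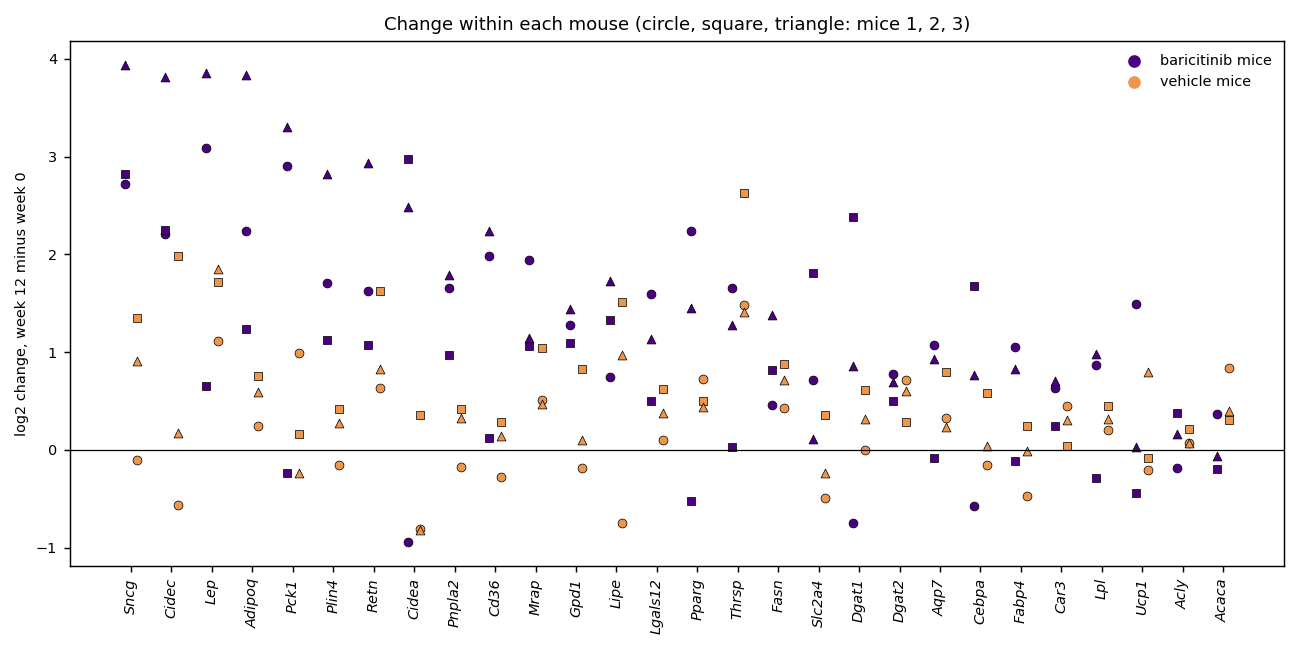
Log2 change from week 0 to week 12 in each mouse for the 28 genes, ordered by the mean change with baricitinib (purple, baricitinib mice; orange, vehicle mice). All 3 purple points lie above the 3 orange ones for Sncg and Cidec, and the colours mix towards the right for Acly and Acaca.

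The 3' to 5' index was set beside these levels. Its 3 lowest arrays, of which 2 are baricitinib week 12 arrays, lay above the other 9 for Cebpa, Cidea and Lipe (10.7% of the 28 genes, beside 8.75% of all probe sets). They lay below the other 9 for Acaca (3.57%, beside 7.23%). These shares were not far from those of all probe sets and are not a result about the 28 genes. Within groups, deviations from the means correlated with the index at -0.90 (Cidea) to 0.92 (Acaca) among the 28 genes, with -0.66 for Sncg and -0.01 for Cidec. The like range over all probe sets was not computed. With the index as a covariate, an alternative added after seeing the data, 13 of the 28 genes were called higher at baricitinib week 12 against week 0 (1.73% of all probe sets) and 9 against vehicle (0.675%). Sncg was among both, with 2.83 (adjusted p = 0.00176) and 2.48 (adjusted p = 0.00650). Adipoq rose in that fit by 3.06, Pck1 by 3.36 and Pparg by 2.05 against week 0. Other differences shrank, among them Lipe (from 1.27 to 0.54), Dgat1 (from 0.83 to 0.08) and Cebpa (from 0.62 to -0.018). The part of RNA quality in the values without the covariate was not tested otherwise.

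**Figure D4:**
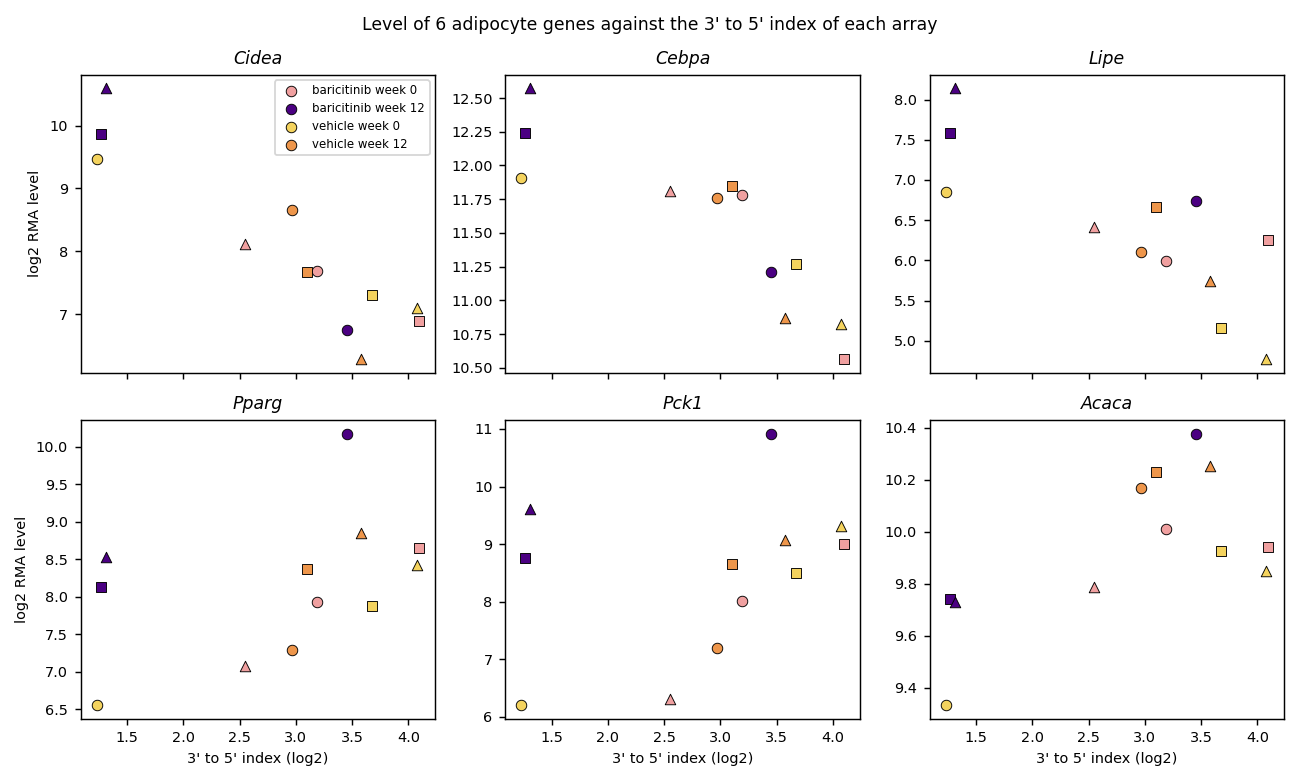
Log2 level of Cidea, Cebpa, Lipe, Pparg, Pck1 and Acaca on each array (vertical) against the array's 3' to 5' index (horizontal, log2), coloured by group. The 3 arrays at 1.23 to 1.31 hold the highest levels of Cidea, Cebpa and Lipe and the lowest of Acaca.

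Because the removed arrays are not named, 1 baricitinib array of each week was left out in all 9 pairs, with the vehicle arrays kept. Between 1 and 3 of the 28 genes were then called higher at week 12 against week 0, beside 0.00888% to 0.773% of all probe sets. The median difference of the 28 genes was 0.77 to 1.30. Sncg was called in 9 of the 9 pairs, Cidec in 2, Lep in 2 and Pnpla2 in 0. Against vehicle at week 12, Sncg was called in 7 of 9 pairs, and the others left 0 of the 28 genes called. Of all probe sets, 0.00222% to 0.984% were called higher there. These fits rest on 2 arrays in each baricitinib group. The pair made up of the 2 arrays of lowest spread is 1 of the 9. Without it, Cidec, Lep and Sncg were called at week 12 against week 0 (0.773% of all probe sets), and Sncg against vehicle (0.984%).

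Of the 28 genes, 17 had more than 1 probe set. The 58 probe sets together held 6 called higher with baricitinib and 0 lower, beside 0.362% and 0.875% of all probe sets. The 3 calls outside the representative probe sets were in Car3 (2.40, adjusted p = 0.0105), Lgals12 (1.50, 0.0252) and Aqp7 (2.68, 0.0471), whose representative probe sets differed by 0.53, 1.07 and 0.64 without a call. Both Aqp7 probe sets were dim. Their mean levels were 3.48 (representative) and 3.47 (called), at mean percentiles of 25.9 and 23.7 of all probe sets. Of the 58, 51 differed by more than 0 and 7 by less, all 7 without a call. These were a Pck1 probe set (-1.27), 3 of Acly and 1 each of Acaca (-0.29), Gpd1 (-0.57) and Lipe (-0.23). Probe sets of a gene thus did not always carry the same difference.

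Of 34 other measured genes of mature fat cells, 3 rose with baricitinib from week 0 and 0 fell, beside the 0.362% and 0.875% of all probe sets given above. The median difference was 0.63, and 30 genes were above 0 and 4 below (Vldlr, Plin2, Cebpb and Cebpd, none called, the lowest at -1.05). They were Nnat (neuronatin, 3.23, adjusted p = 0.0214), Adig (adipogenin, 2.27, 0.0223) and Trarg1 (a partner of glucose transporter traffic, 1.93, 0.0453). Nnat measured 5.10, 5.76 and 4.48 at week 0 and 8.91, 7.26 and 8.86 at week 12, while vehicle arrays ran from 4.01 to 5.94. Against vehicle at week 12, Adig alone of the 34 was called (2.16, adjusted p = 0.0397). No call was made in either direction among 14 other enzymes of lipid synthesis (median 0.17), 8 precursor genes (0.30) and 7 genes of brown fat (0.21) in the change with baricitinib. In the fit with a fixed replicate block per mouse, 0 of the 34 fat cell genes were called, beside 0.0622% of all probe sets called higher.

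Markers of other cell types were followed on the same arrays. Genes of the growing hair follicle went in the opposite direction to the adipocyte genes. With baricitinib 10 of 13 fell from week 0 (median difference -5.11) and 3 of 13 were lower than with vehicle at week 12 (median -3.32), and their mean level was 5.16 to 6.37 at baricitinib week 12 against 7.70 to 11.01 on the other 9 arrays. Of 14 endothelial genes 1 rose with baricitinib (Cldn5, a junction protein, 2.34, adjusted p = 0.0370), the median was 0.87, and the mean level was 7.09 to 7.47 at baricitinib week 12 against 6.13 to 6.85 elsewhere. Of 7 sebaceous genes 0 were called (median 0.21 from week 0 and 0.82 against vehicle), with a mean level of 9.85 to 10.33 against 9.26 to 9.64. Of 14 genes of the panniculus muscle 0 were called (median 0.11), and their mean level at baricitinib week 12 ran from 9.73 (replicate 3) to 11.78, around the 10.70 to 11.64 of the other 9. Of 13 macrophage genes 0 were called (median -0.76), and of 8 mammary epithelial genes 1 fell (Krt8, -2.79, adjusted p = 0.0427; median -1.05). In the fit with a fixed replicate block per mouse, 3 of the 13 follicle genes were called lower (Krt28, Krt35 and Krt73), and neither Cldn5 nor Krt8 was called. The part of these cell types, and of the depth of the biopsy, in the adipocyte values was not tested.

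**Figure D5:**
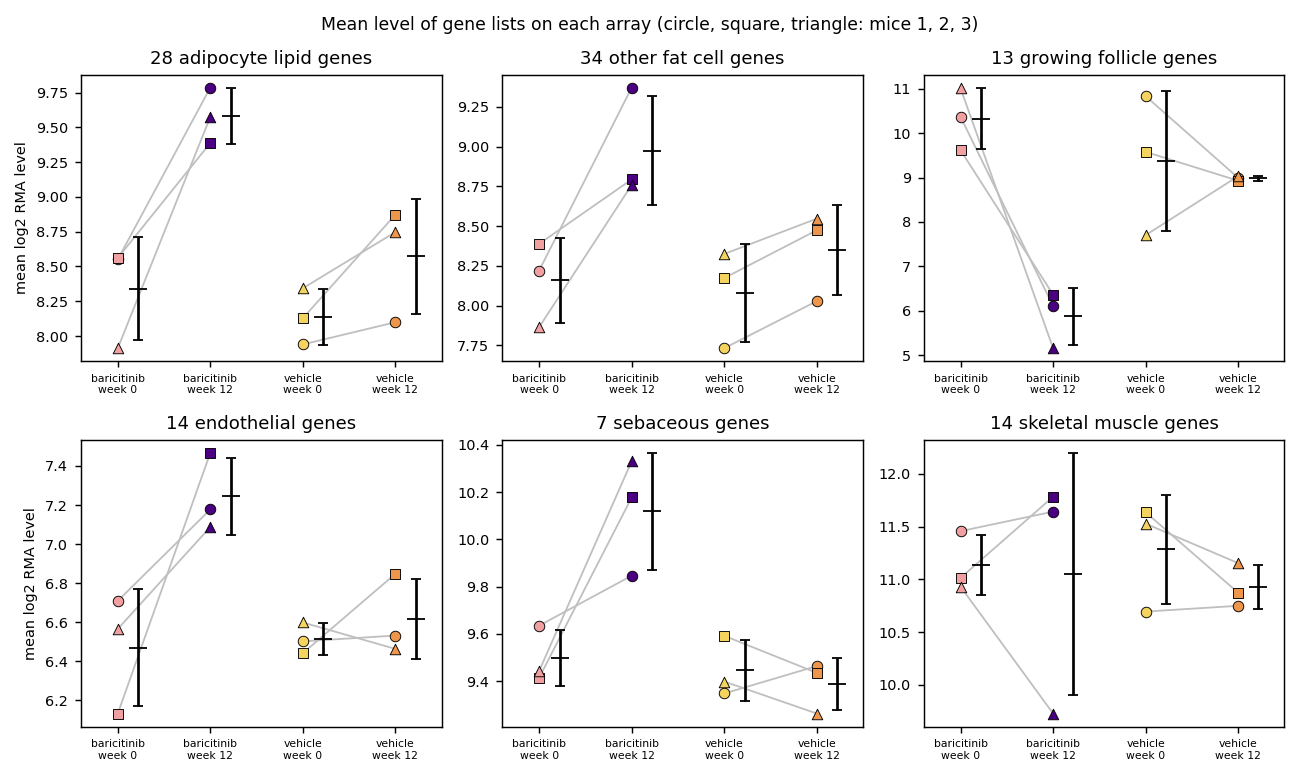
Mean log2 level on each array of 6 gene lists, with lines joining the 2 arrays of a mouse and bars for the group mean ± SD (n = 3). The adipocyte lists are highest and the growing follicle list lowest at baricitinib week 12, and the muscle list overlaps between the groups.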

How the data were processed

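RNA of skin biopsies was amplified, labelled and hybridised to Affymetrix mouse genome arrays by the authors, who normalized the arrays of this experiment by RMA (background correction, quantile normalization, summary to probe sets). The deposited values are on the log2 scale and were used as given. The RMA version, and whether arrays that failed quality control took part in the normalization, are not given in the sources used here. Quantile normalization aligns the arrays at the probe level, so differences are relative to the other genes of an array, and the spread of the summarised values still differed between arrays. Precision is limited by how many arrays each group has.

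Of 45101 probe sets, 64 controls were left out and 45037 tested. Of these, 34945 had 1 gene symbol, 932 several and 9160 none. Limma (version 3.58.1, R 4.3.3) fitted a mean for each of 4 groups over 12 arrays (8 residual and 3.54 prior degrees of freedom), with Benjamini-Hochberg adjustment over all probe sets and a threshold of 0.05. The fit was tested on simulated data with independent noise on each array. That test says nothing of paired mice or of RNA quality. Intervals are 95% intervals from limma. Calls rest on a spread between arrays that is pooled over the 4 groups, each with 3 mice. In this fit both arrays of a mouse count as separate. The genes and lists were chosen with earlier results of these data known, so no set test was made. Levels on every array are given for called genes, for Adipoq, Lep, Cidec, Fabp4 and Ucp1, and for the 6 largest and 6 smallest differences with baricitinib. The 10 other lists are other fat cell genes, lipid synthesis, precursors, brown fat, muscle, sebaceous gland, endothelium, macrophages, mammary epithelium and growing follicle (Elovl3 is in the brown fat and the sebaceous list).

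Same-numbered arrays of a treatment carry the same animal number in the labels, so they were taken as pairs. Deviations from the group means correlated at 0.44, -0.13 and 0.49 within vehicle mice and at -0.36, -0.51 and 0.47 within baricitinib mice. The mouse was not in the model, and a fixed and a random replicate block were alternatives. Promoter windows came from RefSeq.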

Additional observations from a re-analysis of the deposited data

How the results depend on the processing

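The number of the 28 genes called higher at baricitinib week 12 against week 0 was 3 as reported (0.362% of all probe sets). It was 5 with a filter on dim probe sets (26 genes tested, beside 0.95% of all tested). With cyclic loess (0.446%) or median centring (0.289%) it was 2, without Pnpla2. The probe set of largest variance gave 3 (0.362%), with Aqp7 in place of Pnpla2. A fixed replicate block per mouse (0.0622%) and only the groups compared (0.02%) gave 1 each. It was 16 with array weights (13.3%), 8 with the mean of the probe sets of a gene (1.14%) and 13 with the index of RNA quality as covariate (1.73%). Without any single array it was 1 to 3 (0.0222% to 1.37% of all), with 1 without baricitinib week 0 replicate 3, week 12 replicate 2 or week 12 replicate 3. Without a baricitinib array of each week it was 1 to 3 (0.00888% to 0.773%). Against vehicle at week 12 it was 1 as reported (0.151%), 2 with the filter (0.368%) and 11 with array weights (12%, and 1 lower, Acaca). It was 4 with the mean of probe sets (0.451%) and 9 with the index (0.675%). Without any single array it was 1 to 2 (0.0244% to 0.573%), with 2 without vehicle week 12 replicate 2. Without a baricitinib array of each week it was 0 to 1 (0.00222% to 0.984%). Array weights, which ran from 0.132 to 32.1, also gave 9 higher for vehicle (5.35% of all), 4 before treatment (5.32%) and 5 for the difference between changes (7.21%), each from 0. The median vehicle change was 0.34 as reported and 0.22 to 0.60 without any single array, with 0.60 without vehicle week 12 replicate 1. The median difference between changes was 0.70 as reported and 0.27 to 0.93 without a baricitinib array of each week. In the block fit the adjusted p of Sncg was 0.0257, and a random block (correlation -0.00388) changed no call among the 28 genes. The fixed block gives no comparison between treatments. The causes were not tested.

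Some single genes turned sign in the change with baricitinib. Acaca was -0.023 with median centring, -0.18 with array weights, -0.13 with the mean of probe sets and -0.16 without both arrays of lowest spread. Ucp1 was -0.38 with array weights and -0.31 without those arrays. Cebpa, 0.62 as reported, was -0.018 with the index as covariate. Leaving out 1 array, or 1 baricitinib array of each week, took Acaca to between -0.24 and 0.19, Ucp1 to between -0.49 and 0.86, Acly to between -0.013 and 0.27 and Lpl to between -0.12 and 0.97. The index covariate, the arrays of lowest spread and the pairs were chosen after seeing the data. Among the medians and counts for the 28 genes, 458 of the values under alternatives stayed near those reported and 28 did not. Near meant a count within a fixed ratio, or a median within an SD between mice. That SD was 0.36 for the change with baricitinib and 0.684 against vehicle at week 12. Many of these values could hardly move. Only array weights called a gene lower, and leaving out baricitinib arrays kept the vehicle median at 0.34. The tally is therefore no measure of robustness.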
